A study of Homo sapiens with 9 samples.

Results

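Chemokines are small secreted or membrane-held proteins that guide leukocytes, and breast cancer cells make several of them. The genes described are 10 chemokine ligands made by breast cancer cells: CXCL1, CXCL2, CXCL3, CXCL5, CXCL8, CXCL16, CCL2, CCL5, CCL20 and CX3CL1. They were chosen by name from the 61155 gene symbols of each count table, with CXCL3 selected on its higher level in both FBXL12 knockout clones than in control cells. Of the 10, 9 passed the filter on low counts and were among the 17759 genes tested, and CX3CL1 did not pass. The values of these genes in a clone against the control are therefore a description and carry no test. The difference between the clones was not used to choose them and was tested.

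CXC chemokines whose receptor-binding end carries the ELR motif (CXCL1, CXCL2, CXCL3, CXCL5 and CXCL8) act on CXCR1 and CXCR2 and attract neutrophils. CC chemokines act on other leukocytes: CCL2 recruits monocytes through CCR2, CCL5 acts on T cells and monocytes, and CCL20 is the ligand of CCR6. CXCL16 and CX3CL1 are made as membrane-spanning proteins that can be shed, and they bind CXCR6 and CX3CR1. In many cell types the ELR genes and CCL20 are switched on by NF-kB after interleukin-1 or TNF signalling, and several of their mRNAs are short-lived because proteins that bind AU-rich elements destabilise them.

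RNA-seq was done on total RNA of MDA-MB-231, an established line of basal-like breast cancer cells. KO1 denotes clone #1 with the genotype FBXL12-KO (3 libraries) and KO2 denotes clone #2 with the same genotype (3 libraries). WT denotes FBXL12-WT cells that received a scrambled control guide RNA (3 libraries). FBXL12 encodes an F-box protein, the substrate-recognising part of an SCF ubiquitin ligase, and the study examined it under replication stress, but no drug treatment is named for these libraries. Each clone descends from 1 cell, so the knockout was sampled in 2 clones, and both are set against the same 3 WT libraries. Whether replicates came from separate cultures is not in the labels, so the p-values reflect library-to-library spread, which may be technical.

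Total counts ran from 52427841 to 97243363 per library, and a count of 0 allows up to 3 counts, which is 0.0305 to 0.0574 CPM, counts scaled to a common library total. Such limits cover counting error only. FBXL12 itself had 9.56, 9.95 and 9.40 CPM in KO1, 6.14, 6.36 and 5.33 CPM in KO2, and 22.2, 23.3 and 21.4 CPM in WT. It was lower in all libraries of both clones, with log2 changes of -1.21 ± 0.08 in KO1 (SE, edgeR quasi-likelihood adjusted p = 2.65e-08) and -1.91 ± 0.08 in KO2 (adjusted p = 7.29e-11). Mitochondrial genes took 3.52 ± 0.394% of counts in KO1, 4.81 ± 0.5% in KO2 and 3.66 ± 0.156% in WT (SD, n = 3 each), and the part of this difference in the results was not tested.

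The 5 ELR genes lie in 1 cluster of 359 kb on chromosome 4. The stretch from 120 to 21 bases before the RefSeq start of each is shown because the same NF-kB letters, GGAATTTCC, occur in all 5 (in capitals; 5′ to 3′ on the gene's strand, RefSeq sequences of build GRCh38.p14):

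CXCL1 (chr4:73869273-73869372, plus strand): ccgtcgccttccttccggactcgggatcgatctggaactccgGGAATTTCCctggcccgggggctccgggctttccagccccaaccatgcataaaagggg

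CXCL2 (chr4:74099216-74099315, minus strand): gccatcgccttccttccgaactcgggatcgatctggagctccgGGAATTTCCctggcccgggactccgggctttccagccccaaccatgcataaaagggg

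CXCL3 (chr4:74038710-74038809, minus strand): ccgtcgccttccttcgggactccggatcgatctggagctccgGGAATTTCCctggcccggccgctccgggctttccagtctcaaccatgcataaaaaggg

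CXCL5 (chr4:73998698-73998797, minus strand): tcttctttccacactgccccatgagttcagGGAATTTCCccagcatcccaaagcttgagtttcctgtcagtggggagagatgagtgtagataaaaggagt

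CXCL8 (chr4:73740449-73740548, plus strand): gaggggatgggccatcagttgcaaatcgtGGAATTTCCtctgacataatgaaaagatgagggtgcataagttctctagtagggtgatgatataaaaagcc

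The GGAATTTCC match began at base -78 in CXCL1, -77 in CXCL2, -78 in CXCL3, -90 in CXCL5 and -91 in CXCL8, counted from the transcription start. Among 35116 RefSeq promoters of the same length, 162 (0.461%) held these letters on either strand. Over the 89 bases aligned on that match, CXCL1 and CXCL3 were identical at 92.1% of positions and CXCL1 and CXCL2 at 75.3%. CXCL5 and CXCL8 were identical at 27% of positions, the lowest of the 10 pairs. A TATA-like ATAAAA began at base -30 in CXCL1, CXCL2, CXCL3 and CXCL8 and at base -31 in CXCL5, against 16% of all promoters with that match anywhere on either strand.

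The promoter of CCL20 had no GGAATTTCC, and the capitals below mark where matches of the looser NF-kB pattern GGGNNNNNCC overlap each other on both strands:

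CCL20 (chr2:227813722-227813821, plus strand): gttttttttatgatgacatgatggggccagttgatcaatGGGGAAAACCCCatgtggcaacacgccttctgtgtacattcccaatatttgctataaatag

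The RefSeq start is the first base of the GENCODE gene for CXCL1 and lies inside the GENCODE gene for the other 5. That looser pattern was in all 6 chemokine promoters, and also in 58.7% of all promoters, and in CXCL1, CXCL2, CXCL3 and CXCL5 it overlaps GGAATTTCC. The AP-1 pattern TGANTCA was in the CXCL8 promoter, at base -137, and in 7.71% of all promoters. The C/EBP pattern TTGCNNAA was in the CXCL2 promoter, at base -188, and in 10.5% of all promoters. CXCL16, CX3CL1, CCL2 and CCL5 were not matched in the promoter table. A match describes letters in the window and says nothing of binding.

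The chemokine genes spanned a wide range of levels. On a per-length scale (CPM per kb of exon, GENCODE release 29), CXCL8 was the most abundant, with 102 ± 16.9 in KO1, 80.4 ± 2.86 in KO2 and 36.3 ± 6.97 in WT (SD, n = 3 each). CXCL1 came next with 47.7 ± 2.46 in KO1, 50.6 ± 1.56 in KO2 and 18.9 ± 2.49 in WT. CXCL2 followed with 7.23 ± 0.113, 8.50 ± 0.249 and 3.41 ± 0.527 in KO1, KO2 and WT, and CXCL3 with 4.75 ± 0.173, 6.79 ± 0.423 and 1.57 ± 0.237. On this scale the order of the 4 most abundant genes was the same in each group, and no neighbours in it overlapped between libraries of a group. Exon lengths are the union over annotated transcripts, which for CXCL3 is the whole gene of 2219 bases and lowers its per-length level. The place of CXCL2 above CXCL3 in every group rests on these lengths. In CPM, CXCL3 was above CXCL2 in KO2 (15.1 against 12.7). It was below CXCL2 in KO1 (10.5 against 10.8) and in WT (3.48 against 5.12).

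Below them the order depended on the group. CCL2 ranked 5 in KO1 (1.01 ± 0.0518 CPM per kb) and in WT (0.528 ± 0.0304), but in KO2 it ranked 9 (0.113 ± 0.00668) and CCL20 ranked 5 (1.11 ± 0.163). The libraries of CXCL5 and CCL20 overlapped in KO1, those of CCL5 and CXCL5 and of CXCL5 and CCL2 overlapped in KO2, and in WT those of CCL20 and CXCL16 and of CXCL5 and CCL5 did. CX3CL1 was last in each group, at 0.00398 CPM per kb in KO1, 0.00276 in KO2 and 0.00777 in WT.

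Reads of all 47 chemokine ligand genes found in the tables summed to 329 ± 42.2 CPM in KO1, 287 ± 10.1 CPM in KO2 and 125 ± 20.8 CPM in WT (SD, n = 3 each). The 10 genes described here made up 97.1 ± 0.183% of that sum in KO1, 97.7 ± 0.112% in KO2 and 94.3 ± 0.723% in WT. CXCL8 alone held 70.2 ± 2.48% in KO1, 63.7 ± 0.0517% in KO2 and 66.0 ± 1.69% in WT. CXCL1 held 18.9 ± 1.54% in KO1, 22.9 ± 0.133% in KO2 and 19.7 ± 0.788% in WT. The sum of chemokine reads in these cells was thus mostly the neutrophil attractants CXCL8 and CXCL1, whichever the group.

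**Figure D1:**
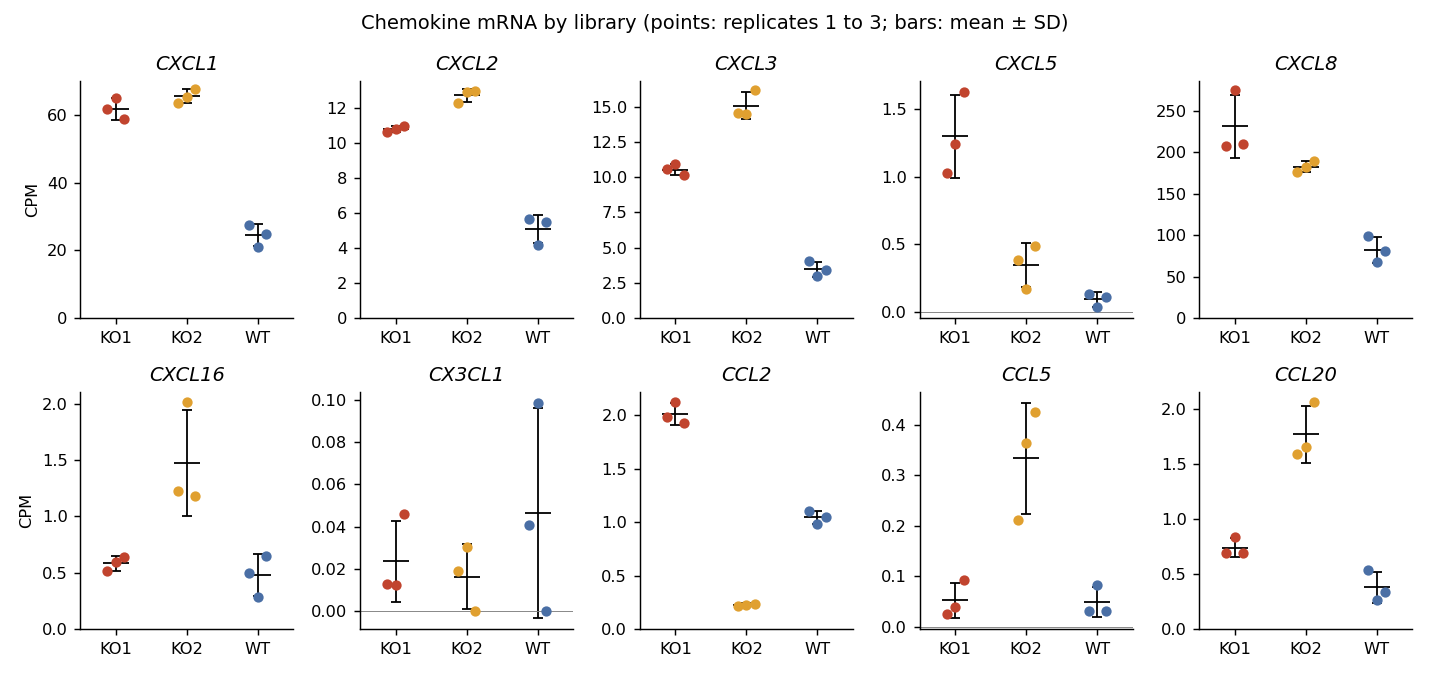
Level of each chemokine mRNA in CPM (vertical axis, linear, scaled per gene) in the 3 libraries of KO1, KO2 and WT (horizontal axis); points are replicates 1 to 3 and bars are mean ± SD. CXCL1, CXCL2, CXCL3, CXCL5 and CXCL8 lie above WT in every library of both clones, whereas CCL2 lies above WT in KO1 and below it in KO2.

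The neutrophil attractants were all higher in both clones than in WT. CXCL3 (ENSG00000163734.4, chr4:74036589-74038807, minus strand, GRCh38 in GENCODE release 29), a CXCR2 ligand, had 10.6, 10.9 and 10.1 CPM in KO1, 14.6, 14.5 and 16.1 CPM in KO2, and 4.04, 2.99 and 3.40 CPM in WT. Every library of both clones was above every WT library, and every KO2 library was above every KO1 library. The log2 change from WT was 1.59 ± 0.10 in KO1 (SE, 95% interval 1.37 to 1.81) and 2.10 ± 0.10 in KO2 (1.89 to 2.32). This is the gene whose level in the clones chose the set.

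CXCL1 (ENSG00000163739.4, chr4:73869393-73871242, plus strand), the growth-regulated oncogene alpha and a CXCR2 ligand, had 61.6, 65.1 and 58.8 CPM in KO1, 63.7, 65.3 and 67.7 CPM in KO2, and 27.4, 21.1 and 25.0 CPM in WT. The clones overlapped each other and stood above WT without overlap. Its log2 change from WT was 1.33 ± 0.08 in KO1 (95% interval 1.16 to 1.5) and 1.42 ± 0.08 in KO2 (1.25 to 1.59).

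CXCL2 (ENSG00000081041.8, chr4:74097035-74099293, minus strand), a close relative of CXCL1 with the same receptor, had 10.7, 10.8 and 11 CPM in KO1, 12.3, 12.9 and 13.0 CPM in KO2, and 5.66, 4.21 and 5.48 CPM in WT. All clone libraries were above all WT libraries, with KO2 slightly above KO1 throughout. The log2 change was 1.08 ± 0.10 in KO1 (95% interval 0.87 to 1.29) and 1.31 ± 0.10 in KO2 (1.10 to 1.52).

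CXCL8 (ENSG00000169429.10, chr4:73740506-73743716, plus strand), which encodes interleukin-8 and binds both CXCR1 and CXCR2, had 208, 276 and 210 CPM in KO1, 176, 183 and 189 CPM in KO2, and 99.1, 67.5 and 80.9 CPM in WT. KO1 was highest, with replicate 2 standing above the other two, and WT was lowest without overlap. The log2 change was 1.49 ± 0.17 in KO1 (95% interval 1.09 to 1.88) and 1.14 ± 0.17 in KO2 (0.75 to 1.54).

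CXCL5 (ENSG00000163735.6, chr4:73995642-73998779, minus strand), the epithelial neutrophil-activating peptide, was rare and had 80, 98 and 142 counts in KO1, 20, 11 and 31 counts in KO2, and 13, 2 and 7 counts in WT. In CPM these were 1.03, 1.24 and 1.63 in KO1, 0.383, 0.167 and 0.489 in KO2, and 0.132, 0.0329 and 0.111 in WT. The 3 groups did not overlap, and KO1 was the highest. Its log2 change was 3.71 ± 0.40 in KO1 (95% interval 2.86 to 4.56) and 1.79 ± 0.48 in KO2 (0.77 to 2.81). CXCL5 passed the filter, which needs 0.152 CPM in 3 libraries, only through the clones, so its inclusion already required a higher level there.

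CXCL1, CXCL2 and CXCL3 are close copies, and the sources used here do not give how reads mapping to several places were counted. Of all stretches of 50 bases in their transcripts, 4.81% of those in CXCL1, 12.5% in CXCL2 and 6.01% in CXCL3 occurred in another of the 10 genes, and none did in the other 7. At 100 bases the shares were 0 for CXCL1, 5% for CXCL2 and 3.27% for CXCL3. Reads could have moved between these 3 genes, so their separate values are less certain. The shares count exact matches among the 10 genes only, so they do not bound how many reads moved. Genes outside the 10 were not compared.

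The AU-rich nonamer ATTTATTTA, a target of mRNA decay factors such as tristetraprolin, was present in the longest coding transcript of CXCL1 (2 copies), CXCL2 (4 copies) and CXCL8 (1 copy), against 7.35% of 19669 protein-coding genes. CXCL3 held 7 copies of the shorter ATTTA and no nonamer, CXCL5 held 11, and CCL5 held 0.

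Of the membrane-held ligands, CXCL16 was higher in KO2 and CX3CL1 was barely detected. CXCL16 (ENSG00000161921.14, chr17:4733526-4739922, minus strand), which also acts as a scavenger receptor for oxidised lipoprotein, had 0.513, 0.595 and 0.642 CPM in KO1, 1.22, 2.02 and 1.18 CPM in KO2, and 0.498, 0.280 and 0.651 CPM in WT. KO1 and WT overlapped, whereas all 3 KO2 libraries stood above both, replicate 2 by the most. Its log2 change was 0.28 ± 0.30 in KO1 (95% interval -0.35 to 0.92) and 1.63 ± 0.28 in KO2 (1.03 to 2.22).

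CX3CL1 (ENSG00000006210.6, chr16:57372458-57385048, plus strand), or fractalkine, had 1, 1 and 4 counts in KO1, 1, 2 and 0 counts in KO2, and 4, 6 and 0 counts in WT, 19 in all. The groups overlapped at the limit of detection, and no library reached the 0.152 CPM of the filter. A difference in CX3CL1 was not detectable at this depth.

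The CC ligands did not move together. CCL2 (ENSG00000108691.9, chr17:34255218-34257203, plus strand), the monocyte chemoattractant MCP-1, had 155, 168 and 168 counts in KO1, 11, 15 and 15 in KO2, and 109, 60 and 66 in WT. In CPM these were 1.99, 2.13 and 1.93 in KO1, 0.210, 0.228 and 0.237 in KO2, and 1.11, 0.987 and 1.05 in WT. The groups were far apart without overlap, with KO1 above and KO2 below WT. The log2 change was 0.94 ± 0.15 in KO1 (95% interval 0.62 to 1.25) and -2.21 ± 0.20 in KO2 (-2.64 to -1.79).

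CCL20 (ENSG00000115009.12, chr2:227805739-227817564, plus strand), the attractant of CCR6-bearing lymphocytes and dendritic cells, had 0.692, 0.836 and 0.688 CPM in KO1, 1.59, 1.65 and 2.07 CPM in KO2, and 0.539, 0.263 and 0.334 CPM in WT. KO2 was highest and WT lowest, with no overlap. Its log2 change was 0.90 ± 0.25 in KO1 (95% interval 0.37 to 1.43) and 2.16 ± 0.24 in KO2 (1.66 to 2.67).

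CCL5 (ENSG00000271503.5, chr17:35871491-35880793, minus strand), also called RANTES, was the rarest of the tested genes in KO1 and WT but not in KO2, with 2, 3 and 8 counts in KO1, 11, 24 and 27 in KO2, and 3, 5 and 2 in WT. In CPM these were 0.0256, 0.0380 and 0.0917 in KO1, 0.210, 0.364 and 0.426 in KO2, and 0.0305, 0.0823 and 0.0318 in WT. KO1 and WT overlapped near the limit of 3 counts, and all KO2 libraries were above them. The log2 change was 0.21 ± 0.70 in KO1 (95% interval -1.29 to 1.71) and 2.84 ± 0.55 in KO2 (1.66 to 4.02). CCL5 passed the filter through KO2 alone, so that difference was required for its inclusion.

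**Figure D2:**
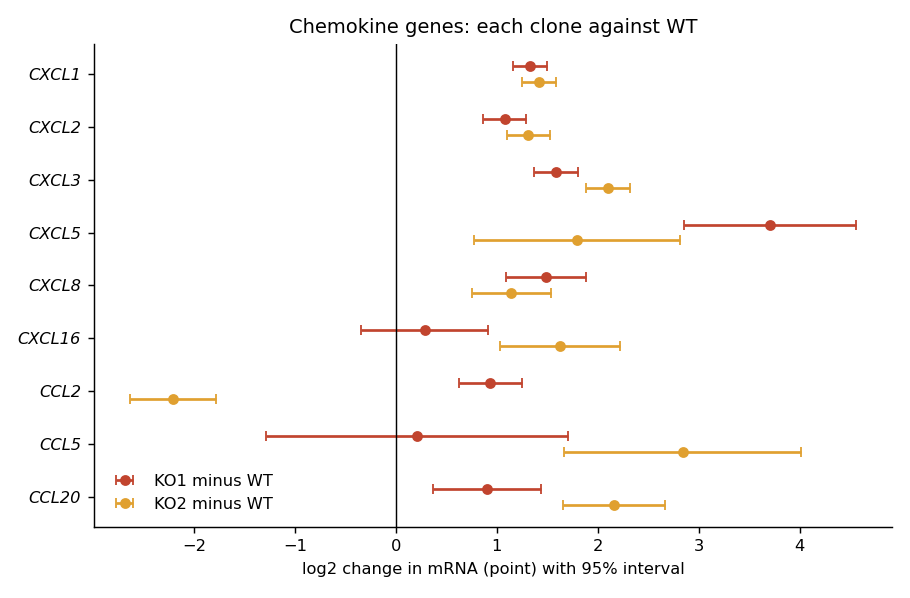
Log2 change of each tested chemokine mRNA from WT (horizontal axis) in KO1 and in KO2, one gene per row; points are fitted changes and bars their 95% intervals, and both clones use the same 3 WT libraries. The 5 ELR genes lie right of 0 in both clones, from 1.08 to 3.71, while CCL2 lies at 0.94 in KO1 and at -2.21 in KO2.

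At an adjusted p under 0.05, 7 of the 9 tested genes were past the threshold in KO1, all higher than WT, and 9 of 9 were in KO2, 8 higher and 1 lower. Over all genes tested, 34.8% were past it in KO1 (18% higher, 16.8% lower) and 49.4% in KO2 (24.7% higher, 24.7% lower). The genes were chosen with these contrasts in view, so the counts only describe them. The median log2 change of the 9 was 1.08 in KO1 and 1.63 in KO2, beside medians of -0.00489 and -0.00768 over all genes tested. CXCL1, CXCL2, CXCL3, CXCL5, CXCL8 and CCL20 were past it and higher in both clones, and CCL2 was the 1 gene past it in opposite directions. Of the 17759 genes tested, 1328 were past it and higher in both clones, 1346 lower in both and 1333 opposite.

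In WT and KO2, the same library was often the lowest or highest across these genes. In WT, replicate 2 was the lowest for 8 of the 9 tested genes and replicate 1 the highest for 7. In KO2, replicate 3 was the highest for 8 genes and replicate 1 the lowest for 6. KO1 showed less of this order, with replicate 1 the lowest for 5, replicate 2 the highest for 5, and replicate 3 the lowest for 4 and the highest for 4. For the ELR genes, CCL20 and CCL2 neither clone overlapped WT, and the share of all genes tested without overlap was not counted. The part of this library order in the chemokine values was not tested.

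Between the clones, CCL2 and CXCL5 were higher and CXCL3, CXCL16 and CCL20 lower in KO1 than in KO2 past the test's threshold. With CCL5, 6 of the 9 genes that passed the filter were past it, beside 48.9% of all genes tested (23.9% higher, 24.9% lower in KO1). CCL5 passed the filter through KO2 alone, so its lower level in KO1 was required for its inclusion and is no test result. The median log2 difference of the 9 was -0.234, against -0.00749 over all genes tested, as a description. A difference here is also a difference in the change from WT, since both clones share the WT libraries.

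CCL2 showed the widest gap, with 2.01 ± 0.103 CPM in KO1 and 0.225 ± 0.0133 CPM in KO2 (SD, n = 3 each). The log2 difference was 3.15 ± 0.19, or 8.86-fold higher in KO1 (edgeR quasi-likelihood adjusted p = 1.89e-09), and held in all 3 libraries. CXCL5 was also higher in KO1, by 1.92 ± 0.34 on the log2 scale or 3.78-fold (adjusted p = 0.000222, edgeR).

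CCL20, CXCL16 and CXCL3 were lower in KO1 than in KO2, in all libraries. CCL20 had a log2 difference of -1.26 ± 0.22 (edgeR adjusted p = 0.000164), a 2.4-fold lower level in KO1. The difference of CXCL16 was -1.34 ± 0.27 (adjusted p = 0.000651), and that of CXCL3 was -0.52 ± 0.10 (adjusted p = 0.000322), or 1.43-fold lower in KO1. For CCL5 the log2 difference was -2.63 ± 0.52, given without a test, and became -3.32 without KO1 replicate 3, the library with 8 of the 13 KO1 counts.

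For the 3 other ELR genes the test between clones did not pass the threshold. CXCL1 had a log2 difference of -0.08 ± 0.08 (95% interval -0.25 to 0.08, edgeR adjusted p = 0.385). CXCL8 had a difference of 0.34 ± 0.16 (95% interval -0.05 to 0.73, adjusted p = 0.129), with each KO1 library above each KO2 library. CXCL2 had a difference of -0.23 ± 0.10 (95% interval -0.44 to -0.03, adjusted p = 0.0539) and each KO1 library below each KO2 library. The call for CXCL2 depended on the processing, since 7 of 17 alternatives put it past the threshold.

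**Figure D3:**
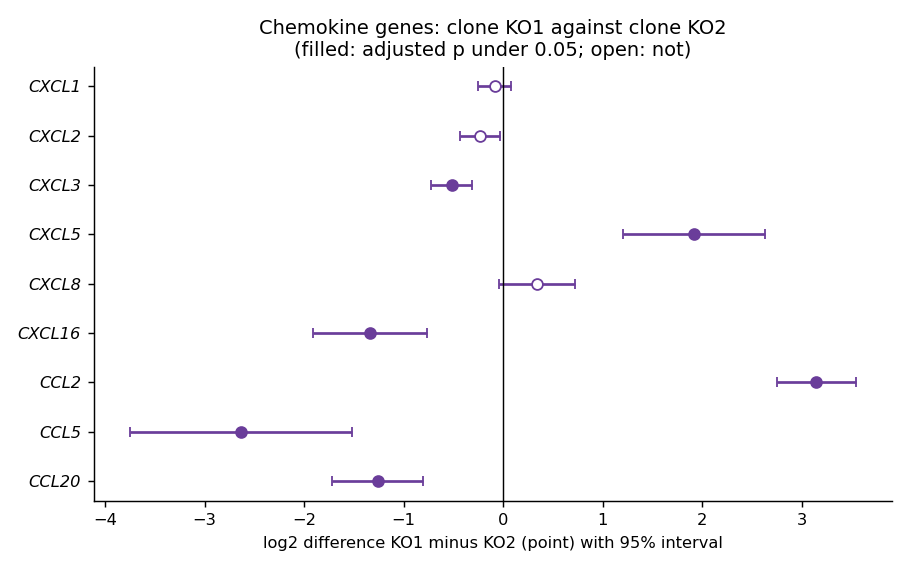
Log2 difference KO1 minus KO2 of each tested chemokine mRNA (horizontal axis), one gene per row; points are fitted differences with 95% intervals, filled where the edgeR adjusted p was under 0.05 (for CCL5 the filter required the difference). CCL2 and CXCL5 lie right of 0 at 3.15 and 1.92, CXCL3, CXCL16, CCL5 and CCL20 lie left of it, and the open points of CXCL1, CXCL2 and CXCL8 lie between -0.23 and 0.34.

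The genes that flank the chemokines were compared to see whether whole regions moved. Around the chromosome 4 cluster, the 20 nearest tested protein-coding genes, 10 on each side, had a median log2 change of 0.0932 in KO1 and 0.188 in KO2. Among them 7 were past the threshold in KO1 and 13 in KO2, beside 34.8% and 49.4% of all genes tested. The KO2 changes of these neighbours ran from -1.55 (AREG, an EGF receptor ligand) to 2.08 (ADAMTS3, a procollagen-processing protease). The 5 ELR genes, at 1.08 to 3.71 in KO1, lay above all 20 neighbours in that clone, whose highest change was 1.01. In KO2, where they were at 1.14 to 2.10, they overlapped neighbours such as ADAMTS3, ODAPH (1.5) and CDKL2 (1.33), and ADAMTS3 was above all of them but CXCL3.

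CCL20 stood in a different setting on chromosome 2. Its 20 neighbours had a median log2 change of -0.0228 in KO1, with 5 past the threshold, but of 0.663 in KO2, with 19 past it and changes from 0.192 to 1.92. Over all genes tested, 34.8% were past it in KO1 and 49.4% in KO2. CCL20 itself, at 2.16 in KO2, was above the highest of its neighbours. A higher level across this region in KO2 therefore went with the higher CCL20, and its part in the CCL20 difference was not tested. The neighbours of CCL2 had medians of 0.104 in KO1 and 0.0266 in KO2, and those of CCL5 had medians of 0.0229 and 0.269. Around CXCL16 the medians were -0.154 in KO1 and -0.142 in KO2.

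**Figure D4:**
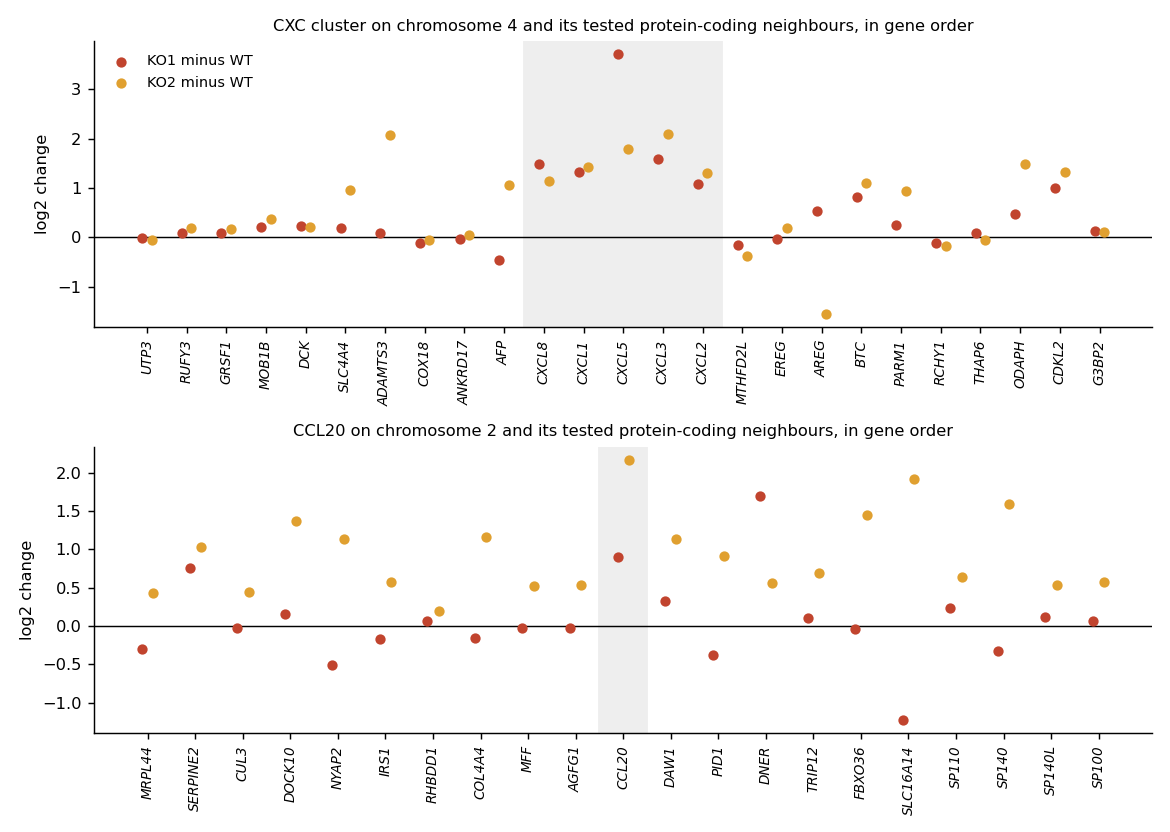
Log2 change from WT (vertical axis) in KO1 and KO2 of the ELR genes on chromosome 4 (upper panel, shaded) and of CCL20 on chromosome 2 (lower panel, shaded), with the 10 nearest tested protein-coding genes on each side in gene order (horizontal axis, not to distance). On chromosome 4 the neighbours have medians of 0.0932 in KO1 and 0.188 in KO2, while around CCL20 every KO2 point is above 0, from 0.192 upward.

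Among tested genes whose log2 CPM averaged 2 or more, the 5 whose profile over the 9 libraries was closest to that of CXCL3 were IL1A, PIK3CG, PLCG2, C3 and APOL3. Closeness was the root mean square difference of centred log2 CPM, which was 0.161 for IL1A (interleukin-1 alpha), 0.2 for the phosphoinositide kinase gene PIK3CG and 0.209 for the phospholipase gene PLCG2. It was 0.223 for C3, the central complement gene, and 0.229 for the apolipoprotein L gene APOL3. IL1A had 12.8 ± 1.14 CPM in KO1, 17.7 ± 1.42 CPM in KO2 and 3.33 ± 0.585 CPM in WT (SD, n = 3 each). Within the chemokines, the distance to CXCL3 was 0.286 for CXCL1, 0.336 for CXCL2, 0.353 for CCL20 and 0.436 for CXCL8. CXCL16, CCL5, CXCL5 and CCL2 were farther, from 0.615 to 1.85, so CCL20 lay nearer to CXCL3 than its cluster neighbours CXCL8 and CXCL5 did.

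For the gene lists that follow, counts of genes that rose or fell stand beside background shares of 34.8% past the threshold in KO1, 49.4% in KO2 and 48.9% between clones, and medians over all genes of -0.00489, -0.00768 and -0.00749. A count near those shares is no result about its list.

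Most of the remaining ligand genes were nearly silent, but CCL28 was not. Of 37 other ligand genes in the tables, 32 did not pass the filter, 19 of these had 0 counts in all 9 libraries, and the highest single count was 13. Among the 5 tested, 2 rose in KO1, and 2 rose and 1 fell in KO2, with median log2 changes of 0.463 and 0.0738. CCL24 (eotaxin-2, an eosinophil attractant) rose in both clones, with 0.421 ± 0.142 CPM in KO1, 0.342 ± 0.152 CPM in KO2 and 0.142 ± 0.0617 CPM in WT (edgeR adjusted p = 0.00909 and 0.0291). CCL24 reached 0.152 CPM in all clone libraries but in only 2 of 3 WT libraries. Its inclusion therefore rested in part on the clones, and these p-values are conditional on it. CCL28, an epithelial ligand of CCR10, had 7.89 ± 0.446 CPM in KO1, 5.06 ± 0.574 CPM in KO2 and 6.13 ± 0.168 CPM in WT. It rose in KO1 by 0.36 and fell in KO2 by 0.27 on the log2 scale (edgeR adjusted p = 0.00836 and 0.0314). CXCL10, an interferon-induced ligand of CXCR3, had 55 counts in KO1, 11 in KO2 and 23 in WT, a log2 difference of 1.86 ± 0.56 between KO1 and KO2. It reached the filter's 0.152 CPM in the KO1 libraries alone, so its inclusion required a higher level there and no test is given.

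The receptors that these ligands use were mostly not detected. Of 23 receptor genes 17 did not pass the filter, including CXCR1 with 5 counts in all 9 libraries, CXCR2 with 1, CCR2 with 19, CX3CR1 with 2 and CCR6 with 0. Among the 6 tested, 1 rose and 1 fell in KO1, and 0 rose and 2 fell in KO2, with median log2 changes of 0.198 and -0.175. CXCR4, the receptor of CXCL12, fell in both clones, to 24.7 ± 1.34 CPM in KO1 and 19.1 ± 1.17 CPM in KO2, against 33.7 ± 1.48 CPM in WT. Its log2 change was -0.45 ± 0.06 in KO1 (edgeR adjusted p = 7.15e-05) and -0.82 ± 0.06 in KO2 (adjusted p = 6.59e-08), while CXCL12 had 0 counts in every library. CXCR6, the CXCL16 receptor, was rare, with 0.850 CPM in KO1, 0.358 CPM in KO2 and 0.412 CPM in WT. It rose in KO1 (log2 1.03, edgeR adjusted p = 0.032) and had a change of -0.20 in KO2 (adjusted p = 0.702). CCR1, a CCL5 receptor, was also rare, with 0.827 CPM in KO1, 0.394 CPM in KO2 and 0.619 CPM in WT. It was higher in KO1 than in KO2 by 1.06 on the log2 scale (edgeR adjusted p = 0.00144).

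Among the signalling genes, the interleukin-1 ligand genes IL1B and IL1A rose in both clones. IL1B had 57.1, 61.7 and 57.8 CPM in KO1, 66.9, 70.2 and 66.0 CPM in KO2, and 8.38, 7.03 and 8.12 CPM in WT. Both clones were far above WT without overlap. Its log2 change was 2.90 ± 0.07 in KO1 (edgeR adjusted p = 3.08e-13) and 3.10 ± 0.07 in KO2 (adjusted p = 8.66e-14). IL1A rose by 1.93 ± 0.12 in KO1 and 2.40 ± 0.12 in KO2 on the log2 scale (adjusted p = 1.81e-08 and 3.86e-10).

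Of the 24 tested genes from interleukin-1 and TNF to NF-kB, 8 rose and 3 fell in KO1, and 7 rose and 6 fell in KO2, with median log2 changes of 0.0953 and -0.0178, and these counts are close to the background. Between clones 9 were higher and 5 lower in KO1. IRAK1, a kinase of the interleukin-1 receptor complex, fell by 0.30 in KO1 and 0.36 in KO2 (adjusted p = 0.0493 and 0.0176), and TAB1, an adaptor of the kinase TAK1, fell by 0.27 and 0.33 (adjusted p = 0.0345 and 0.00835). IL1R1, the signalling receptor, had 0.174 CPM in KO1, 2.01 CPM in KO2 and 0.158 CPM in WT. It rose in KO2 by 3.69 ± 0.26 on the log2 scale (adjusted p = 1.53e-08), had a change of 0.16 in KO1 (adjusted p = 0.745), and differed between clones (-3.53 ± 0.25, adjusted p = 1.05e-08). IRAK2, another kinase of that complex, rose in KO1 by 0.56 and fell in KO2 by 0.61 (adjusted p = 3.55e-06 and 6.26e-07).

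The NF-kB feedback list holds inhibitors and cofactors that NF-kB itself induces or acts with. Of 11 tested, 5 rose and 1 fell in KO1, and 1 rose and 0 fell in KO2, with medians of 0.157 and -0.0515, and between clones 6 were higher and 1 lower in KO1. TNFAIP3, which encodes the NF-kB inhibitor A20, had 30.8 CPM in KO1, 20.4 CPM in KO2 and 20.6 CPM in WT. It rose in KO1 by 0.58 (edgeR adjusted p = 3.46e-06), had a change of -0.01 in KO2 (adjusted p = 0.886) and was 0.59 higher in KO1 than in KO2 (adjusted p = 7.57e-07). BIRC3, an NF-kB-induced ubiquitin ligase gene, rose in KO1 by 0.48 (adjusted p = 0.00132) and had a change of -0.21 in KO2 (adjusted p = 0.0603).

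Among genes for factors that set the stability of chemokine mRNA, KHSRP and ELAVL1 fell in both clones. Of 11 tested, 3 rose and 2 fell in KO1, and 3 rose and 5 fell in KO2, with medians of 0.0314 and 0.0492. KHSRP, whose protein speeds the decay of AU-rich mRNAs, had 271 ± 24.7 CPM in KO1, 182 ± 10.9 CPM in KO2 and 384 ± 30.3 CPM in WT. It fell by 0.50 in KO1 and by 1.08 in KO2 on the log2 scale (edgeR adjusted p = 0.000364 and 4.04e-07). ELAVL1, which encodes the stabilising protein HuR, fell by 0.25 and 0.45 (adjusted p = 0.00027 and 3.73e-07), and ZFP36, which encodes tristetraprolin, had a change of 0.03 in KO1 (adjusted p = 0.846) and fell by 0.41 in KO2 (adjusted p = 0.00507).

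KHSRP and ELAVL1 both lie on chromosome 19, and their regions moved too. The 20 neighbours of KHSRP had medians of -0.373 in KO1 and -0.422 in KO2, with 13 and 14 past the threshold. Those of ELAVL1 had medians of -0.633 and -1.11, with 12 and 15 past it. The shares past it over all genes tested were 34.8% in KO1 and 49.4% in KO2. The part of these regions in the changes of KHSRP and ELAVL1 was not tested.

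Genes for the shedding and trimming of chemokines cover proteases and the sheddase adaptors RHBDF1 and RHBDF2. Of 8 tested, 6 rose and 1 fell in KO1, and 3 rose and 2 fell in KO2, with medians of 0.466 and 0.0121. MMP1, an interstitial collagenase, had 2847 ± 206 CPM in KO1, 1521 ± 31.8 CPM in KO2 and 1101 ± 64.4 CPM in WT, and rose by 1.37 and 0.47 on the log2 scale (edgeR adjusted p = 1.5e-10 and 3.11e-06). MMP9, a gelatinase that trims CXCL8, rose by 2.27 in KO1 and 2.04 in KO2 (adjusted p = 0.00308 and 0.00524), with 23 counts in WT. MMP9 reached 0.152 CPM in all clone libraries but in 1 WT library, so its inclusion rested on the higher level in the clones and these p-values are conditional on it. DPP4, a peptidase that trims several chemokines, rose by 0.77 and 1.02 (adjusted p = 0.0242 and 0.00299). ADAM10, a sheddase of CXCL16 and CX3CL1, rose in KO1 by 0.52 and fell in KO2 by 0.28 (adjusted p = 1.08e-06 and 0.000167). RHBDF1, an adaptor of the sheddase ADAM17, fell in both clones by 0.22 and 0.45 (adjusted p = 0.0445 and 0.000258).

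**Figure D5:**
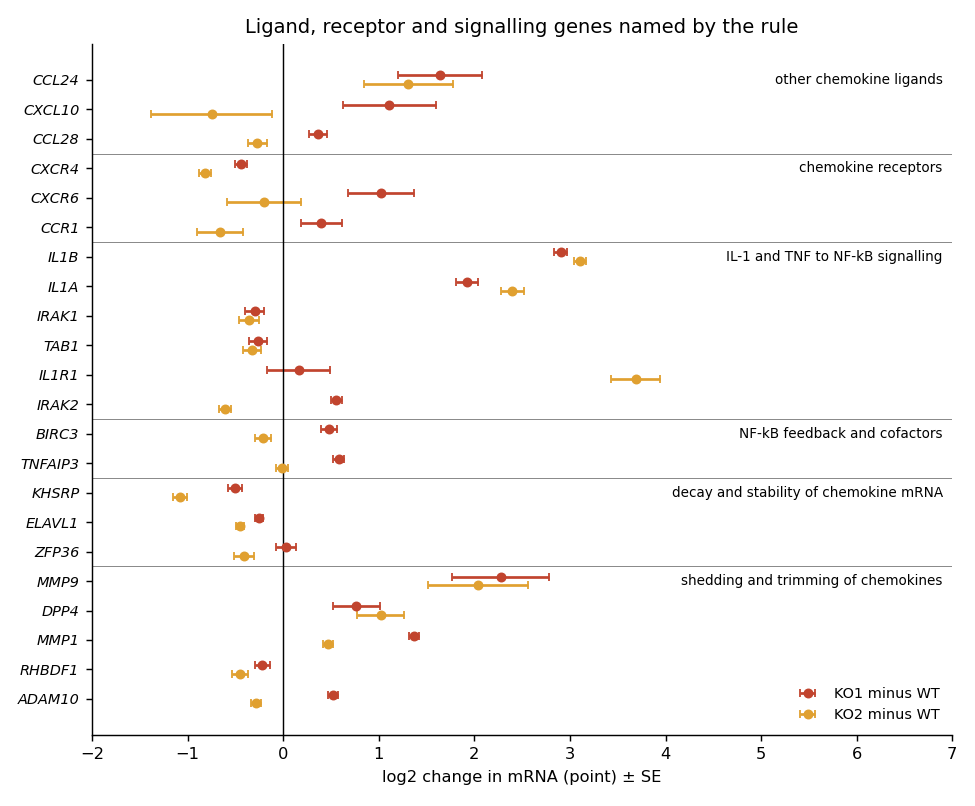
Log2 change from WT (horizontal axis) in KO1 and KO2 of the ligand, receptor, signalling, decay and protease genes named in the text, one gene per row and grouped by list; points are fitted changes and bars are SE. IL1B and IL1A lie near 2 to 3 in both clones, IL1R1 lies at 3.69 in KO2 and 0.16 in KO1, and CXCR4 and KHSRP lie left of 0 in both.

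Markers of the line and of other cells were read in the same libraries. VIM, CD44, EGFR, KRT8 and KRT18 summed to between 5281 and 5409 CPM in KO1, 6696 and 6714 CPM in KO2, and 5034 and 5418 CPM in WT. ESR1, PGR, ERBB2, EPCAM and CDH1 were listed as genes taken to be low in this line. They summed to 63.3 to 73.2 CPM in KO1, 58.5 to 65.5 CPM in KO2 and 74.3 to 80.9 CPM in WT. Most of that sum was ERBB2, and PGR was at 0 in every library. EPCAM, within that sum, rose in KO1 and fell in KO2, with 4.52 CPM in KO1, 0.824 CPM in KO2 and 1.77 CPM in WT (edgeR adjusted p = 3.59e-05 and 0.000436). CCL2 had the same directions, and 1333 of the 17759 genes tested were past the threshold in opposite directions in the clones. The part of EPCAM in the CCL2 result was not tested. The 12 leukocyte markers summed to 2.29 to 2.86 CPM in KO1, 2.11 to 3.14 CPM in KO2 and 2.14 to 2.78 CPM in WT, with MS4A1 and FCGR3A at 0. Within it CSF1R fell in KO1 by 1.35 on the log2 scale (edgeR adjusted p = 0.0114). CD3D had 0.251 CPM in KO1, 0.0960 CPM in KO2 and 0.0973 CPM in WT. It reached 0.152 CPM in 3 KO1 libraries, 1 KO2 library and no WT library. The 4 endothelial markers summed to 0.821 to 0.952 CPM in KO1, 0.727 to 0.789 CPM in KO2 and 0.922 to 1.04 CPM in WT. The 5 fibroblast markers were higher in the clones, with 1.58 to 1.91 CPM in KO1, 1.90 to 2.26 CPM in KO2 and 1.05 to 1.40 CPM in WT. Nearly all of that was PDGFRB, with LUM at 0, and the part of these low levels in the chemokine results was not tested. In bulk RNA, more cells that make a chemokine and more of its mRNA per cell cannot be told apart.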

How the data were processed

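The authors deposited raw read counts per gene symbol, 1 table per library, without normalization. HISAT2 was used per the file headers, and Trim Galore per the submitters' processing notes, which also name the builds hg38, GRCm38 and mm10 without a role. The sources used here do not give tool versions, the counter, the annotation, strand or the handling of reads that map to several places. From these counts, genes were filtered with filterByExpr (0.152 CPM in at least 3 libraries), scaled with TMM and fitted with edgeR 4.0.16 in R 4.3.3 (quasi-likelihood, robust, 1 mean per group, all 9 libraries). Adjusted p-values are Benjamini-Hochberg over the 17759 genes tested, with a threshold of 0.05. CPM uses TMM-scaled library sizes of 52266365 to 98372753. The biological coefficient of variation was 7.46%, and no libraries of a group agreed within counting noise (chi-square per degree of freedom 6.36 to 31.9 over 9 pairs). The fit was also run on simulated counts with independent libraries and the same spread for all genes. That setting is simpler than these data, so the run does not measure error rates here.

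The members and lists were chosen with earlier results of these data known. Genes named besides the 10 and FBXL12 are, per list, up to 4 with the greatest smaller change among those called in the same direction in both clones, up to 2 with the greatest difference between clones, and the 5 closest to CXCL3. KHSRP and MMP1 met both rules. CXCR1, CXCR2, CCR2, CCR6, CX3CR1 and CXCL12 were named as receptors or ligands of genes described, and the neighbours AREG, ADAMTS3, ODAPH and CDKL2 and the markers EPCAM, CSF1R and CD3D after their values were seen. Positions and exon lengths are from GENCODE release 29 and promoters from RefSeq (GRCh38.p14). Alternatives were other scalings, DESeq2 1.42.0, limma-voom (limma 3.58.1), filters, a replicate block, a GC correction, fits of 2 groups only and leaving out each library.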

Additional observations from a re-analysis of the deposited data

Results flagged for a closer look

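In 5 chemokine genes the change from WT differed between the clones by the edgeR quasi-likelihood test of KO1 minus KO2, adjusted over all genes tested. The log2 difference was 3.15 for CCL2 and 1.92 for CXCL5, which were higher in KO1. It was -1.34 for CXCL16, -1.26 for CCL20 and -0.516 for CXCL3, which were lower in KO1. CCL5 stood at -2.63, but it passed the filter on low counts through KO2 alone, so the filter required that difference and it is no test result. CCL2 was the 1 gene of the set whose libraries lay above WT in one clone and below WT in the other. Of the 17759 genes tested, 1333 were past the threshold in opposite directions in the 2 clones. For CCL20 the neighbouring genes were also higher in KO2, with a median log2 change of -0.0228 in KO1 and 0.663 in KO2. No cause of these differences was tested.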

How the results depend on the processing

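Across 17 alternatives (9 that leave out 1 library and 8 others), no called chemokine value changed direction and none lost its call where the gene was tested. The number of the 9 chemokine genes past the threshold ran from 6 to 8 for KO1 minus KO2, was 7 in each for KO1 minus WT, and was 8 or 9 for KO2 minus WT, the 8 because CCL5 did not reach 1 CPM in 3 libraries. Over all genes the count ran from 7595 to 9986 for KO1 minus KO2, 4690 to 6934 for KO1 minus WT and 7685 to 9701 for KO2 minus WT. The receptor, other ligand and pathway genes past it numbered 40 (38 to 48), 33 (25 to 35) and 32 (28 to 38) for the same contrasts, so calls among them near the threshold are less certain. CXCL2 passed for KO1 minus KO2 under 7 alternatives, with adjusted p from 0.0214 to 0.14 over all 17, and CXCL8 passed in the fit of the 2 groups only (0.0284; range to 0.328). Leaving out WT replicate 1 moved CCL20 to 1.31 in KO1 and 2.56 in KO2, leaving out KO1 replicate 3 put CCL5 at -0.48 in KO1, and leaving out WT replicate 2 put it at 3.37 in KO2. Same-numbered libraries did not consistently deviate together (r from -0.526 to 0.478 over 9 pairs), so the numbers were read as names only. Differently numbered libraries of 2 groups ran from r = -0.489 (WT 2 with KO2 3) to 0.536 (WT 2 with KO1 1). The part of such shared spread in the chemokine values was not tested. With the replicate block 6, 7 and 9 chemokine genes were past the threshold for KO1 minus KO2, KO1 minus WT and KO2 minus WT, and 8240, 5544 and 8302 of all genes. No alternative scaling moved the median of all genes by as much as 0.1. Depth limits CX3CL1, CCL5 and CXCL5, whose WT counts were 13 or fewer per library.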
